A study of Saccharomyces cerevisiae with 40 samples.

Results

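The genes of serine biosynthesis in Saccharomyces cerevisiae are described here: SER3, SER33, SER1 and SER2, chosen by name as the enzymes of the route from glycolysis to serine. They are 4 of the 6462 genes in the deposited table, and all 4 passed the filter on low values. Messenger RNA was measured in 40 libraries of yeast cultures in 10 groups of 4. The control group is Ctrl, and the other 9 groups are each named for the amino acid given to the culture. Of these, Gly, Thr and Cys stand for glycine, threonine and cysteine, Val and Ile for the branched-chain valine and isoleucine, Phe and Trp for the aromatic phenylalanine and tryptophan, Ala for alanine and Met for methionine. Letters from A to D number the libraries of every group and are given as batches in the labels. The sources used here give no strain, medium, dose or time of exposure, and doses may not be the same for each amino acid. Nothing in the labels says that the libraries came from separate cultures, so the p-values speak of the spread among these libraries, part of which may be technical.

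Yeast makes serine from 3-phosphoglycerate, an intermediate of glycolysis. Ser3 and Ser33 are isozymes of 3-phosphoglycerate dehydrogenase, which oxidises it in the first step, Ser1 is the aminotransferase that makes phosphoserine, and Ser2 is the phosphatase that releases serine. Serine is then used for protein, phospholipids, sphingolipids, cysteine and tryptophan, and serine hydroxymethyltransferases exchange it with glycine and one-carbon units. SER3 is known for an unusual control: in medium with serine, the activator Cha4 turns on SRG1, a noncoding RNA transcribed across the SER3 promoter, and this transcription represses SER3.

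Names in the table were matched by systematic name to the R64 reference, and all positions below are those of R64, since the authors' build is not named in the sources used here. SER3 (YER081W) lies at chrV:322686-324095 on the plus strand, SER33 (YIL074C) at chrIX:221081-222490 on the minus strand, SER1 (YOR184W) at chrXV:679357-680544 on the plus strand and SER2 (YGR208W) at chrVII:911883-912812 on the plus strand. The coding regions of SER3 and SER33 are both 1410 bases long and match at 1162 positions (82.4%), with a longest identical run of 56 bases, so some reads could fit both genes. Estimated reads of SER33 were whole numbers, within 0.02 read, in all 40 libraries, so no sign of split reads was seen. That cannot tell whether reads fitting both genes were left out or assigned whole to either gene. SRG1 (chrV:322212-322762, plus strand) starts 474 bases before the SER3 coding region and overlaps its first 77 bases.

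The stretch from 300 to 51 bases before each start codon is printed for the 4 genes. Whether these sequences bear on the levels was not tested. Each is 250 bases of R64 read 5′ to 3′ on the strand of its gene, and the windows are chrV:322386-322635 (plus), chrIX:222541-222790 (minus), chrXV:679057-679306 (plus) and chrVII:911583-911832 (plus) in the order shown. Capitals mark TGACTC, the core sequence recognised by Gcn4 and Bas1, on either strand (GAGTCA on the reverse strand), and CACGTG, the palindrome bound by Cbf1.
SER3: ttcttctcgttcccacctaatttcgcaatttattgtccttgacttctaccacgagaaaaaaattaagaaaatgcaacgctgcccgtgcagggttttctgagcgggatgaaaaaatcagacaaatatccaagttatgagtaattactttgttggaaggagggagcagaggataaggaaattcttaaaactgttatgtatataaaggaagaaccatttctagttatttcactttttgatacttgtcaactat
SER33: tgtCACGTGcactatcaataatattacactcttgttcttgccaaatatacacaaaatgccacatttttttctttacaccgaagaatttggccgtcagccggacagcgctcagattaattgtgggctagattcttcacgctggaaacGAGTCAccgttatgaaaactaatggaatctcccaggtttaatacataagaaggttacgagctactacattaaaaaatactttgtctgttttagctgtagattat
SER1: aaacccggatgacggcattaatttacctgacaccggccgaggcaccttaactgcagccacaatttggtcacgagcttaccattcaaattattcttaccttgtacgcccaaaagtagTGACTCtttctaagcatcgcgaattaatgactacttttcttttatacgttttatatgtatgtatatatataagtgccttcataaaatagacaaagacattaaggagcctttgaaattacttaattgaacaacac
SER2: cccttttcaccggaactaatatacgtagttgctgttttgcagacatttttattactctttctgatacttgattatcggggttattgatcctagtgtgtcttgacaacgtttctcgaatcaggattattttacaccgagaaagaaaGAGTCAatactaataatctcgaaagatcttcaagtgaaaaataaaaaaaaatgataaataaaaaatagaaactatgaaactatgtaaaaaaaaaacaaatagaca
TGACTC was found 184 to 179 bases before the start of SER1 on the forward strand, 155 to 150 before SER2 and 154 to 149 before SER33, both on the reverse strand, and not in the SER3 window. CACGTG was found in the SER33 window, 297 to 292 bases before its start. The same window holds TGACTC in 410 of 6020 protein-coding genes (6.81%) and CACGTG in 196 (3.26%). The SER3 window lies wholly within SRG1. A match of letters is not a measured binding site.

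Each library held an estimated 5555865 to 17928683 reads assigned to genes, with a median of 8736144. The members were well covered: the median over libraries was 5729.5 estimated reads for SER1, 3299 for SER3, 1583 for SER33 and 1257.5 for SER2. Levels are normalized reads as deposited, given as mean ± SD over the 4 libraries of a group. Differences are limma's on log2(value + 1) ± SE, with Benjamini-Hochberg adjusted p over the 6103 genes tested and a threshold of 0.05. The 9 comparisons with Ctrl share the same 4 Ctrl libraries.

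Per length, the members stood in a clear order in Ctrl. Per kilobase of gene, SER1 was the most abundant at 4758 ± 136 normalized reads, followed by SER3 at 2285 ± 624, SER2 at 1488 ± 105 and SER33 at 1106 ± 124. The libraries of SER3 and SER1 did not overlap, nor did those of SER3 and SER2 or of SER2 and SER33. Across the 10 groups the ratio of the highest to the lowest group mean was 5.60 for SER3, 2.07 for SER33, 1.85 for SER1 and 1.67 for SER2. SER3 was thus the member whose group means spread most widely.

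**Figure D1:**
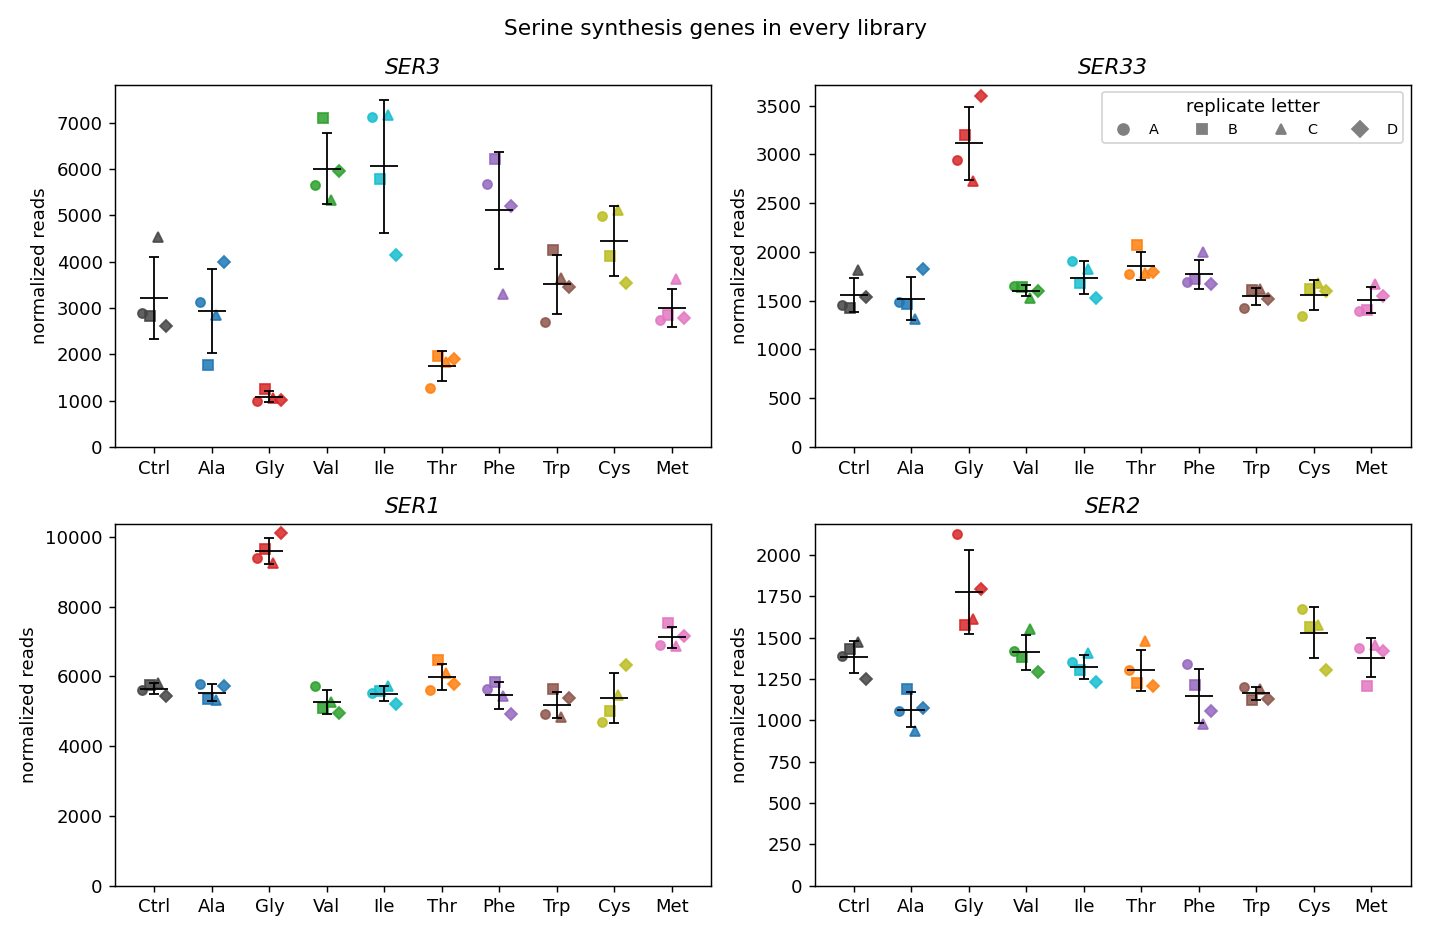
Normalized reads of SER1, SER2, SER3 and SER33 in each of the 40 libraries, by group. Points are libraries with the letter as the shape, and black bars give the group mean and SD. SER3 is highest in Ile and Val and lowest in Gly, while SER1, SER2 and SER33 are highest in Gly.

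SER3, which encodes the dehydrogenase isozyme under SRG1 control, fell in Gly and Thr and rose in Val and Ile. In Ctrl its normalized reads in libraries A to D were 2901, 2833, 4529 and 2622. In Gly they were 1002, 1253, 1053 and 1021, so every Gly library lay below every Ctrl library. The group mean fell from 3221 ± 880 to 1082 ± 115, a log2 difference of -1.54 ± 0.21 (limma adjusted p = 6.43e-07). Genes called lower in Gly made up 12.2% of those tested. Bulk RNA does not tell fewer expressing cells from less RNA per cell, here or below.

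Threonine was the other amino acid with lower SER3. The Thr libraries held 1277, 1971, 1834 and 1897 normalized reads, again all below Ctrl, with a mean of 1745 ± 317. The log2 difference was -0.87 ± 0.21 (limma adjusted p = 0.00432), where 5.33% of tested genes were called lower. Gly lay below Thr by a further 0.67 ± 0.21 on the log2 scale (limma adjusted p = 0.0237), a pair in which 15.2% of tested genes were called.

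With the branched-chain amino acids SER3 was higher. The Val libraries held 5654, 7105, 5331 and 5956 normalized reads, all above the highest Ctrl library, with a mean of 6011 ± 772. The log2 difference was 0.93 ± 0.21 (limma adjusted p = 0.00442), where 2.51% of tested genes were called higher. The Ile libraries held 7131, 5781, 7177 and 4135, with a mean of 6056 ± 1435, and here library D lay below Ctrl library C. The difference was 0.91 ± 0.21 (limma adjusted p = 0.00888), where 1.26% of tested genes were called higher. It no longer passed when Ctrl library D (0.82, limma adjusted p = 0.0549), Ile library A (0.82, limma adjusted p = 0.0578) or Ile library C (0.82, limma adjusted p = 0.0533) was left out. SER3 in Val and Ile differed by -0.02 ± 0.21 on the log2 scale in the order Ile minus Val (limma adjusted p = 0.999).

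In Phe, SER3 was at 5686, 6222, 3310 and 5212 normalized reads, with library C alone inside the Ctrl range. The difference of 0.66 ± 0.21 did not pass (limma adjusted p = 0.0544, higher in 3 of 4 letters). It passed without Ctrl library C (0.84, limma adjusted p = 0.0140) or without Phe library C (0.86, limma adjusted p = 0.00892). In Cys the mean was 4445 ± 751, higher than Ctrl in all 4 letters, with a difference of 0.48 ± 0.21 that did not pass (limma adjusted p = 0.279). Trp (3513 ± 637), Met (2998 ± 418) and Ala (2935 ± 917) overlapped Ctrl, with differences of 0.14, -0.08 and -0.16. The 95% interval of the Ala difference ran from -0.58 to 0.27, which leaves room for changes of that size either way.

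Ordered by mean, SER3 ran Ile, Val, Phe, Cys, Trp, Ctrl, Met, Ala, Thr and Gly. Of the 9 neighbouring pairs in this order, 2 passed: Ala above Thr (0.71 ± 0.21, limma adjusted p = 0.00734, among 37.7% of genes called) and Thr above Gly. The libraries of Ala and Thr overlapped, and those of Thr and Gly did not. Set against the average of the 8 remaining amino acids, SER3 passed in Gly (-1.80, limma adjusted p = 2.04e-11), Thr (-1.04, limma adjusted p = 5.62e-06), Val (0.98, limma adjusted p = 4.83e-05), Ile (0.97, limma adjusted p = 5.22e-05), Phe (0.68, limma adjusted p = 0.00413) and Cys (0.48, limma adjusted p = 0.0162). Genes called in either direction in these 6 comparisons were 25%, 11.5%, 6.49%, 5.36%, 8.65% and 34.8% of those tested. For Val, Ile, Phe and Cys the 8 include Gly and Thr, where SER3 was lowest. Against Ctrl, SER3 did not pass in Phe or Cys.

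**Figure D2:**
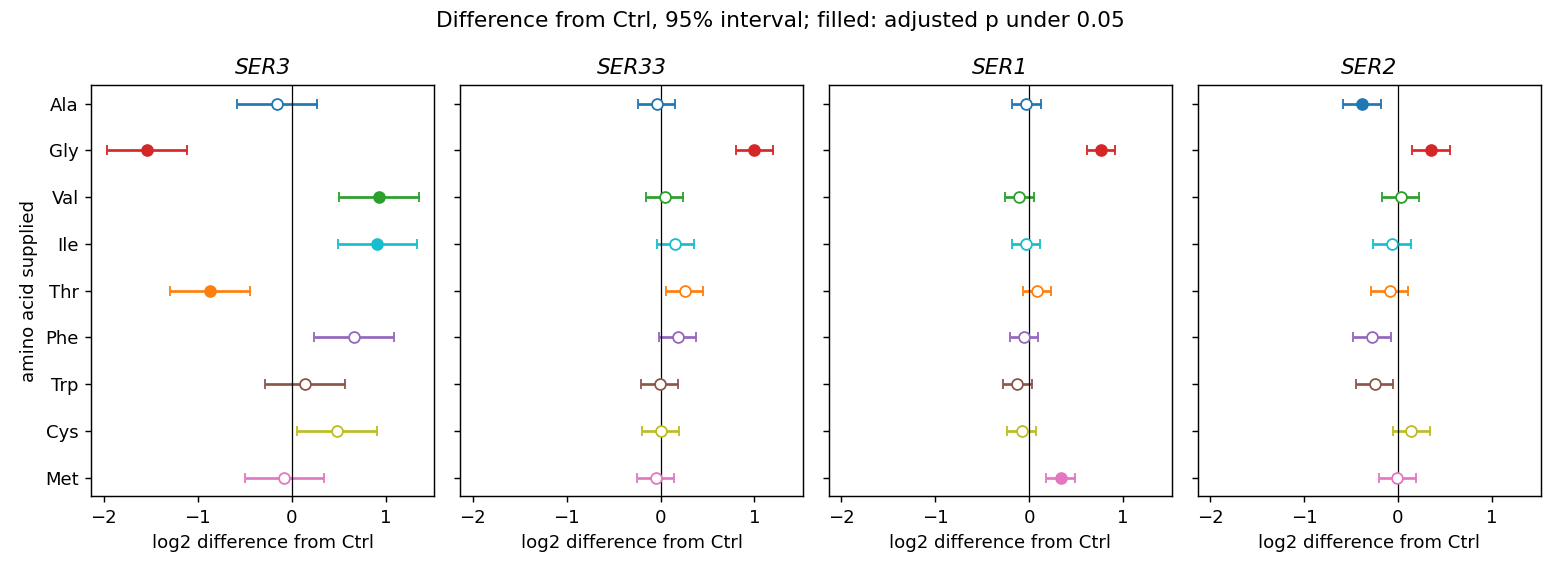
Log2 difference from Ctrl of each member in each of the 9 amino acids, on the x axis, from limma on log2(value + 1), with bars for the 95% interval. Filled points passed the adjusted threshold of 0.05. In Gly all 4 members passed, SER3 at -1.54 and SER33 at 0.998.

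SER33, the second dehydrogenase gene, rose in Gly and passed in no other comparison with Ctrl. Its Ctrl libraries held 1459, 1426, 1810 and 1540 normalized reads. The Gly libraries held 2939, 3200, 2729 and 3598, all above every Ctrl library. The mean rose from 1559 ± 174 to 3116 ± 374, a log2 difference of 0.998 ± 0.10 (limma adjusted p = 6.01e-10), where 14% of tested genes were called higher. SER33 and SER3 thus passed in opposite directions in the same libraries.

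Outside Gly, SER33 lay within a narrow range of 1308 to 2072 normalized reads over 36 libraries. In Thr, where SER3 fell, SER33 stood at 1778, 2072, 1784 and 1794, a difference of 0.26 ± 0.10 that did not pass (limma adjusted p = 0.0869) and that passed without Ctrl library C (0.33, limma adjusted p = 0.0328). In Val and Ile, where SER3 rose, SER33 differed from Ctrl by 0.05 (95% interval -0.15 to 0.24) and 0.16 (-0.04 to 0.35). In the order of group means 1 of 9 neighbouring pairs passed, Gly above Thr (0.74 ± 0.10, limma adjusted p = 6.10e-07, among 15.2% of genes called).

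The coding regions of the paralogues are equally long, so their levels need no scaling for length. The ratio within a library needs no scaling between libraries. How reads fitting both genes were assigned is not known, so such reads could shift the ratio. Reads in the stretch that SER3 shares with SRG1 could shift it too. In Ctrl, SER3 made up 66.9 ± 3.47% of the summed reads of both genes, and in all 4 Ctrl libraries it was the higher. In Gly its share was 25.9 ± 2.79% and SER33 was higher in all 4 libraries. In Thr the share was 48.2 ± 4.38%, with SER3 higher in 2 of 4 libraries. The share was 78.8 ± 1.71% in Val and 77.3 ± 2.96% in Ile. In the other 5 amino acid groups SER3 was the higher in every library, with mean shares from 64.9% in Ala to 73.7% in Cys.

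The log2 ratio of SER3 to SER33 differed from Ctrl by -2.54 in Gly, -1.12 in Thr, 0.88 in Val and 0.76 in Ile. In each of these 4 the libraries did not overlap with Ctrl, and each gave an exact two-sided permutation p of 0.0286, the smallest that 4 against 4 libraries can give, or 0.0643 after adjustment over 9 comparisons. None therefore passed after adjustment. In Cys (0.48, exact permutation p = 0.0571, adjusted 0.103) and Phe (0.48, exact permutation p = 0.143, adjusted 0.214) the libraries overlapped with Ctrl, and the remaining 3 differed by 0.15 or less in size. The summed level of both genes was 4780 ± 1043 normalized reads in Ctrl, 4199 ± 401 in Gly, 3602 ± 409 in Thr, 7614 ± 808 in Val and 7791 ± 1601 in Ile. The Gly sums, from 3782 to 4619, overlapped the Ctrl sums, from 4162 to 6339, whereas neither gene alone overlapped with Ctrl in Gly.

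**Figure D3:**
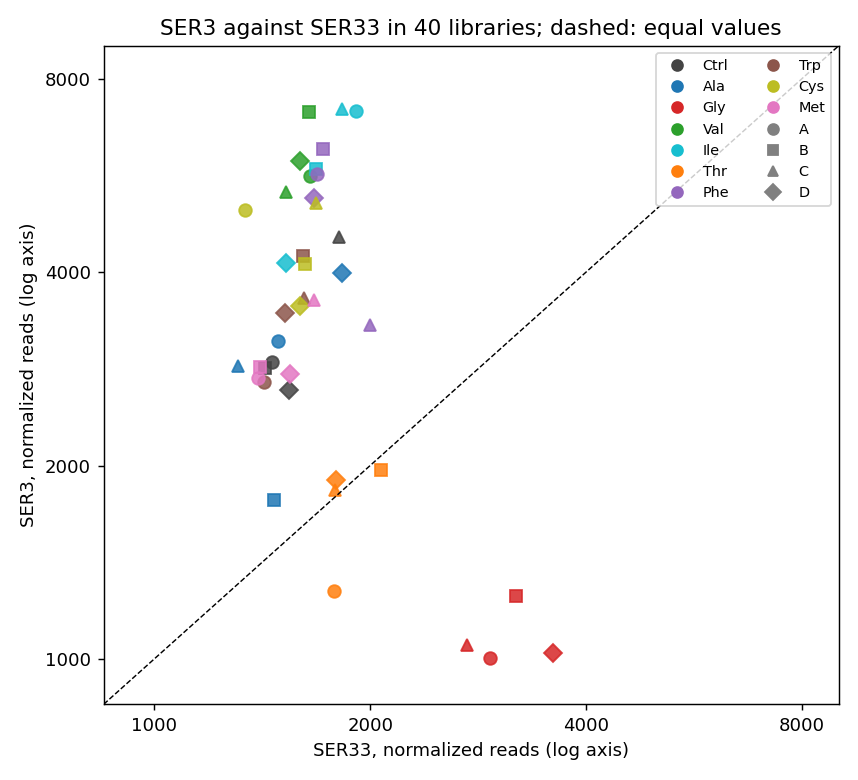
SER3 (y axis) against SER33 (x axis) in normalized reads on log axes, a point per library coloured by group with its letter as the shape; the dashed line marks equal values. Gly libraries lie on the side where SER33 is higher, with a mean SER3 share of 25.9%. By group mean the share is highest in Val (78.8%) and Ile (77.3%), while single Phe and Cys libraries lie among theirs.

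SER1, encoding phosphoserine aminotransferase, rose in Gly and Met. Its Ctrl libraries were tight, at 5607, 5759, 5800 and 5444 normalized reads. The Gly libraries held 9404, 9667, 9253 and 10111, all well above Ctrl, and the mean rose from 5652 ± 162 to 9609 ± 376 (0.77 ± 0.07, limma adjusted p = 5.60e-10). The Met libraries held 6910, 7546, 6878 and 7165, also all above Ctrl, with a mean of 7125 ± 309 (0.33 ± 0.07, limma adjusted p = 0.00270), where 6.06% of tested genes were called higher. In the order of means, Gly lay above Met (0.43 ± 0.07, limma adjusted p = 4.32e-05, among 17.8% of genes called) and Met above Thr (0.25 ± 0.07, limma adjusted p = 0.0168, among 15.3%). The other 7 neighbouring pairs overlapped in their libraries. Relative to the 8 remaining amino acids SER1 was also lower in Val (-0.21), Trp (-0.24) and Cys (-0.19), where 6.49%, 9.37% and 34.8% of tested genes were called. In each case the 8 include Gly and Met, where SER1 was called higher. Against Ctrl these 3 differed by -0.10, -0.13 and -0.08 and did not pass.

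SER2, encoding the phosphatase of the last step, rose in Gly and fell in Ala, within the narrowest span of the 4 genes. Its Ctrl libraries held 1388, 1429, 1473 and 1247 normalized reads. The Gly libraries held 2129, 1574, 1614 and 1795, all above Ctrl, and the mean rose from 1384 ± 97.6 to 1778 ± 253 (0.35 ± 0.10, limma adjusted p = 0.00716). Library A decided that call: without it the difference was 0.26 (limma adjusted p = 0.0583). In Ala SER2 was at 1054, 1191, 932 and 1074, all below Ctrl, and the mean fell to 1063 ± 106 (-0.38 ± 0.10, limma adjusted p = 0.00182), in a comparison where 24.2% of tested genes were called lower. With libraries rescaled to equal totals, under which the median over all tested genes in Ala became 0.18, SER2 stood at -0.20 and did not pass (limma adjusted p = 0.109). Phe (-0.28) and Trp (-0.25) lay below Ctrl without passing (limma adjusted p = 0.101 and 0.0925). No neighbouring pair of groups passed for SER2.

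Over all comparisons with Ctrl, Gly was the comparison in which all 4 members passed, 3 higher and 1 lower, where 26.2% of tested genes were called in either direction. In Ala, Val, Ile, Thr and Met a single member passed in each, SER2 in Ala, SER3 in Val, Ile and Thr, and SER1 in Met. For these, 47.2%, 5.39%, 1.92%, 11.2% and 9.8% of genes were called in either direction. In Phe, Trp and Cys no member passed, in comparisons where 5.6%, 12.3% and 2.83% of genes were called. None passed either in the mean of the 9 amino acids against Ctrl, where SER33 stood at 0.17 (limma adjusted p = 0.139) and 9.03% of genes were called. Relative to the 8 remaining amino acids, SER2 was also lower in Ala (-0.36) and Phe (-0.25) and higher in Cys (0.23), and SER33 was lower in Ala (-0.24), Cys (-0.19) and Met (-0.25). With equal library totals both Ala calls and the SER2 calls in Phe and Cys were lost. Genes called in either direction against those 8 made up 50.7% in Ala, 14.6% in Met and 9.37% in Trp. In each of the SER33 cases the 8 include Gly, where SER33 was highest. Against Ctrl, SER33 stood at -0.04 in Ala, 0.001 in Cys and -0.05 in Met, and SER2 at 0.14 in Cys, without passing.

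SRG1, the noncoding RNA across the SER3 promoter, did not pass in the comparisons where SER3 fell. In Ctrl it was at 180, 156, 129.7 and 142 normalized reads (152 ± 21.6). In Gly it was at 121, 113, 102 and 137 (118 ± 14.7), a difference of -0.35 ± 0.23 that did not pass (limma adjusted p = 0.285), and in Thr 104 ± 7.85 (-0.54, limma adjusted p = 0.147). SRG1 fell in Val, to 81.8 ± 24.4 (-0.93, limma adjusted p = 0.0125), and in Trp, to 50.7 ± 10.9 (-1.57, limma adjusted p = 1.19e-05). In Val SER3 was called higher, and in Trp SER3 did not pass. In the other 5 amino acids SRG1 stood between -0.71 in Phe and -0.41 in Ala without passing, and in the mean of the 9 it differed by -0.70 ± 0.17 and passed (limma adjusted p = 0.00778). Reads in the 77 shared bases could be assigned to either gene: in 10 of the 40 libraries both genes had a number of reads more than 0.02 from whole, and in all 10 the sum was whole within that tolerance. The largest such fraction, in Thr D, was 0.37 of a read. Poly(A) selection was used for these libraries and SRG1 was represented by 28 to 224 estimated reads a library.

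CHA1, the serine and threonine deaminase that Cha4 also activates, rose in Gly, Thr and Ala. It was at 106 ± 14.7 normalized reads in Ctrl and at 1263 ± 222 in Gly (3.55 ± 0.17, limma adjusted p = 2.05e-18), 414 ± 56.2 in Thr (1.95 ± 0.17, limma adjusted p = 7.30e-11) and 193 ± 44.1 in Ala (0.84 ± 0.17, limma adjusted p = 0.000124). In the other 6 groups its mean lay between 88.6 and 107 and did not pass. SER3 was lowest in both groups with the highest CHA1, while in Ala CHA1 passed and SER3 did not.

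**Figure D4:**
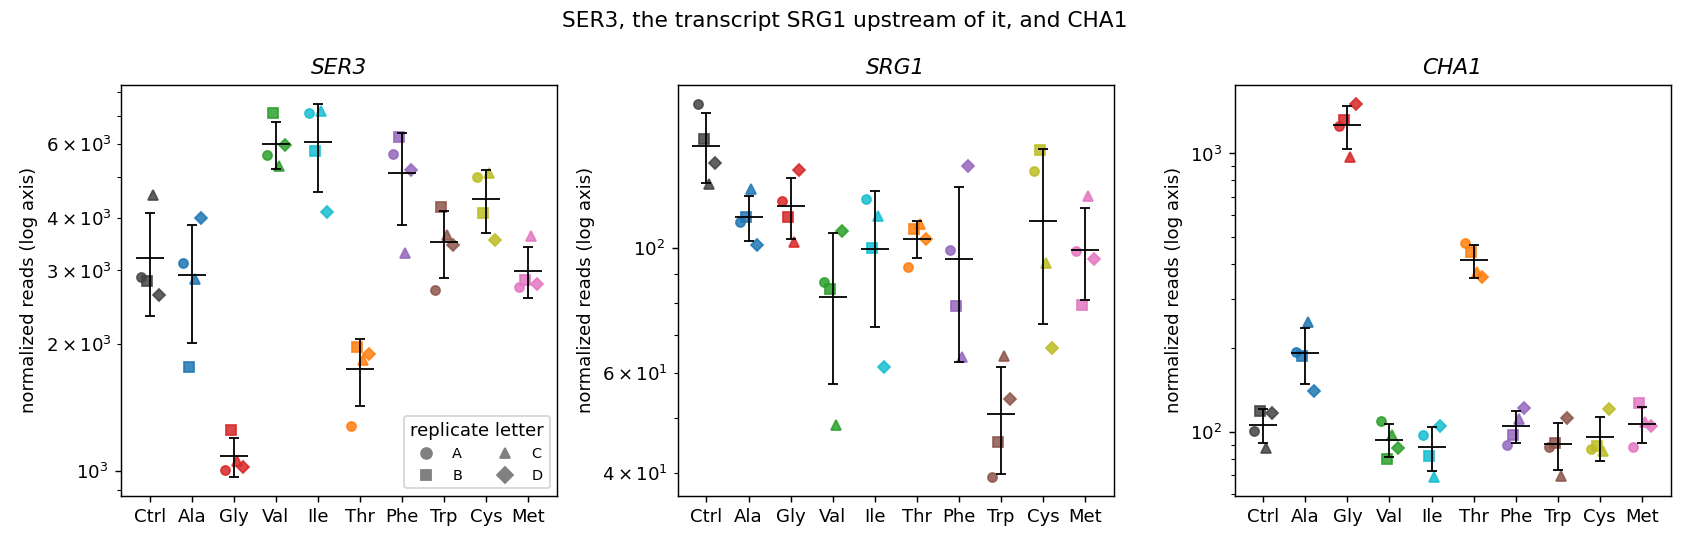
SER3, SRG1 and CHA1 in normalized reads by group on log axes, a point per library with the letter as the shape, and black bars for the group mean and SD. CHA1 rises to 1263 in Gly and 414 in Thr, the groups where SER3 is lowest, and SRG1 is lowest in Trp at 50.7.

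The neighbouring reactions were read from lists of enzymes. Among 10 enzymes that use serine, 2 rose in Gly and none fell (median 0.16, against -0.02 over all tested genes, of which 14% were called higher and 12.2% lower), a share of rises near that of all genes: CHA1 and SHM2, the cytosolic serine hydroxymethyltransferase, from 29805 to 72522 normalized reads (1.28 ± 0.14, limma adjusted p = 8.19e-09). In Thr 2 rose, CHA1 and the phosphatidylserine synthase CHO1 (0.65, limma adjusted p = 0.000122), at a list median of 0.02, where 5.87% of all tested genes were called higher. SHM2 fell in Ala (-1.72), Phe (-0.51), Trp (-0.55) and Met (-0.50). It stood at -0.10 in Val, -0.02 in Ile, -0.27 in Thr and 0.14 in Cys without passing. In Ala 6 of the 10 fell and 2 rose (median -0.24, against -0.01 over all tested genes), where 24.2% of all tested genes were called lower and 23.1% higher. With equal library totals the calls over all genes in Ala became 2167 higher and 758 lower.

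Of 13 enzymes of glycine and one-carbon metabolism, 9 rose and 1 fell in Gly (median 0.58), where 14% of all tested genes were called higher and 12.2% lower. The rises were led by the glycine decarboxylase subunits GCV2 (1.91 ± 0.13), GCV1 (1.78) and GCV3 (1.41) and by the tetrahydrofolate enzymes MTD1 (1.26) and MET13 (0.85) and the glyoxylate aminotransferase AGX1 (0.88). GLY1, whose aldolase makes glycine from threonine, fell by 0.76. In Ala, where 24.2% of all genes were called lower and 23.1% higher, 6 fell and 1 rose (median -0.32), with GCV2 at -1.85 and GCV1 at -1.84. In Thr, where 5.33% of genes were called lower, GLY1 alone passed, at -0.73. The fall of GLY1 was not confined to Gly and Thr. It passed in Val (-0.51, limma adjusted p = 0.0410) and in the mean of the 9 (-0.36, limma adjusted p = 0.0414). GLY1 lay below Ctrl without passing in Ala, Ile, Phe, Trp, Cys and Met. GCV2 also fell in Val (-0.49), Phe (-0.46) and Trp (-0.73), and stood at -0.42 in Ile, -0.34 in Thr, 0.28 in Cys and 0.22 in Met without passing. Of 8 regulators of the route, 2 passed in Gly, the chromatin factors SPT2 (0.33) and SNF2 (-0.30), and 2 in Thr, the activator BAS1 (-0.53) and the histone chaperone SPT16 (0.21). Over all tested genes 26.2% passed in Gly and 11.2% in Thr, so the count in Gly was at the share of all genes. BAS1 was also called lower in Ala (-0.52) and Trp (-0.47). SPT2 was also called higher in Phe (0.31) and Met (0.37), and lower in Ala (-0.25). Genes called in either direction were 47.2% in Ala, 12.3% in Trp, 5.6% in Phe and 9.8% in Met. TGACTC was present in the same upstream window of 8 of the 13 glycine and one-carbon genes, GCV1, GCV2, GCV3, LPD1, MTD1, ADE3, MET13 and DFR1, and in 1 of the 10 serine-using enzymes, SHM2. These lists were chosen with results of these data known, so their counts are a description.

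The genes whose group means tracked each member most closely across the 10 groups were taken by Pearson r among 5791 tested genes with a mean of at least 20. They were ORM2 (0.96), FUS1 (0.93) and VPS21 (0.92) for SER3, and BNA4 (0.95), CIR1 (0.93) and ATP16 (0.91) for SER33. For SER1 they were RTK1 (0.96), GID8 (0.95) and SGT1 (0.94), and for SER2 YAR1 (0.94), ERI1 (0.93) and ADE5,7 (0.93). Between the members, r over the same 10 means was 0.81 for SER1 with SER33, 0.65 for SER1 with SER2, -0.79 for SER1 with SER3 and -0.69 for SER3 with SER33, and Spearman's rho for these pairs was 0.19, 0.21, -0.77 and -0.05, so only SER1 with SER3 kept a like value by rank. All rest on 10 points that share Gly as an extreme for every member.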

How the data were processed

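RNA was isolated with a MasterPure kit, treated with DNase I, selected for poly(A) and made into NEBNext Ultra II directional libraries, per the labels. STAR 2.7.8a and Partek are named without a role, per the submitters' processing notes. The table that the authors deposited holds normalized read counts, here treated as a signal of 0 or more for every gene in every library. The sources used here do not give its normalization, or whether strand was used in counting. Between 88.8 and 91.0% of a library's values were whole multiples of 1 step within 0.1 read, which gave the estimated reads. The rest were fractional, so no count test was run.

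On the log2(value + 1) scale, 6103 genes whose mean reached 5 were fitted in limma 3.58.1 (R 4.3.3) with trended variance and the 10 groups over all 40 libraries, without a block. Adjustment was by Benjamini-Hochberg. A fold change on this scale understates changes of low genes. The paralogue ratio was tested by exact permutation over 70 arrangements in Python 3.11.15. The labels give the letters as batches, which pairs the libraries: the mean r of deviations from group means was 0.174 within a letter, across groups. Between letters it was -0.0576. Deviations in each group of 4 sum to 0, so the value between letters follows from the value within a letter and adds no separate observation.

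The members and lists were chosen with earlier results of these data known. Named are the members, up to 6 called genes per list and comparison, CHA1, SHM2, GCV2 and SRG1, and the 3 genes most like each member. On simulated data for Gly against Ctrl over 6103 genes, 46 of 62 changes of 0.58 were found, 64 of 69 of 1 and 65 of 69 of 2, with 9 false calls. The simulated noise was normal and independent between libraries, with no likeness by letter. Far fewer genes were changed than the 26.2% called in Gly, so these rates need not hold for the data. Alternatives were pseudocounts of 0.25 and 4, no filter, median-of-ratios or equal-total rescaling, the letter as a block, constant prior variance, the compared groups alone, and leaving out each library.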

Additional observations from a re-analysis of the deposited data

Results flagged for a closer look

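In groups of 4, a library was singled out where its gap to the nearest other exceeded Dixon's 95% critical value, which chance gives in about 1 in 20 groups. Of 50 groups examined (the 4 members and the log2 ratio of SER3 to SER33, in 10 groups each), 6 met it. SER3 in Ctrl library C was at 4529.35 normalized reads against 2622 to 2901 in the others, and this library enters every comparison with Ctrl. SER3 in Met library C was at 3620.02 against 2738 to 2852. SER33 in Thr library B was at 2071.5 against 1778 to 1794, and in Phe library C at 1996.36 against 1671 to 1718.5. SER2 in Met library B was at 1206.67 against 1417 to 1454. The log2 ratio of SER3 to SER33 in Ala library B was 0.27 against 1.07 to 1.13 in the others.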

How the results depend on the processing

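Over 760 values of a member against Ctrl under an alternative, no called value reversed. No paralogue ratio was called, so its 99 values under an alternative could not show a reversal of a call. Leaving out single libraries, the ratio against Ctrl changed sign in Ala (-0.20 to 0.09) and Met (-0.11 to 0.07). With equal library totals, SER2 in Ala no longer passed (-0.20), and SER33 in Thr (0.28), SER3 in Phe (0.69) and SER33 in the mean of the 9 (0.19) passed. That rescaling changed calls higher and lower from 1407 and 1474 to 2167 and 758 in Ala, from 153 and 176 to 114 and 283 in Val, from 77 and 40 to 68 and 58 in Ile, from 79 and 94 to 55 and 146 in Cys, and from 370 and 228 to 483 and 134 in Met. The letter as a replicate block changed no member's call against Ctrl and raised the genes called in Val from 329 to 499. For the ratio of SER3 to SER33, libraries were also paired by letter and the signs of the paired differences flipped. This exact test cannot give a p under 0.125 before adjustment, so no ratio could pass. Its adjusted p was 0.225 in Gly, and the same in Val, Ile, Thr and Cys. In a fit to the compared groups alone, 494 genes were called in Val, 195 in Phe (from 342), 1311 in Trp (from 752) and 79 in Cys (from 173), and SER2 in Trp passed (-0.25); this split calls 77 and 76 in Ile and 153 and 42 in Phe. Leaving out single libraries, genes called ranged from 204 to 351 in Val (lowest without Ctrl D), 103 to 175 in Cys (without Ctrl A) and 465 to 681 in Trp (without Trp A). Members ranged over 0.82 to 1.09 (SER3 in Ile), 0.55 to 0.86 (SER3 in Phe), 0.20 to 0.33 (SER33 in Thr), 0.26 to 0.41 (SER2 in Gly) and -0.36 to -0.20 (SER2 in Phe, passing without Phe A). The cause was not tested. Against the mean of the other 8, 4 calls were lost and 5 gained, 8 of these 9 with equal totals. SER3 and SER33 had at least 741 and 959 estimated reads in every library, and SRG1 at least 28. Whether counting depth limited the SRG1 comparisons was not tested.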

Other observations

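Of 5 permeases that take up serine, 2 passed in Gly, 2 in Val, 4 in Ala and 0 in Thr, in comparisons where 26.2%, 5.39%, 47.2% and 11.2% of all tested genes passed. In Gly AGP1 (-1.05, limma adjusted p = 6.86e-05) and GNP1 (-0.46) fell and none rose. In Val DIP5 (1.59) and GAP1 (1.16) rose, and DIP5 and AGP3 rose in Ala (1.83 and 0.68), where AGP1 (-1.04) and GNP1 (-0.56) fell. These rises were not particular to Val and Ala. DIP5 and GAP1 also rose in Ile (1.18 and 1.01), Phe (1.73 and 0.89) and Trp (1.58 and 0.80). In Met DIP5 rose (1.37) and GAP1 fell (-0.78). DIP5 did not pass in Gly, Thr or Cys, and in the mean of the 9 it rose by 1.22 (limma adjusted p = 0.000207).

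Of 7 enzymes of lower glycolysis, which lead to or on from 3-phosphoglycerate, 2 rose in Gly, TDH1 (from 1372 to 4690 normalized reads, 1.89 ± 0.29) and ENO1 (0.59), with a list median of 0.01, where 14% of all tested genes were called higher. In Val 3 rose, TDH2 (0.75), PGK1 (0.45) and GPM1 (0.43), where 2.51% of all tested genes were called higher. The list median in Val was 0.43, against 0.00 over all tested genes. TDH2 also rose in Ile (0.65, list median 0.32), and PGK1 (0.41) and GPM1 (0.34) in Trp (list median 0.34). In Ala TDH1 rose (0.71) while TDH2 (-0.59) and ENO1 (-0.65) fell, and in Met TDH1 rose (1.03). Genes called in either direction were 1.92% in Ile, 12.3% in Trp, 47.2% in Ala and 9.8% in Met. TDH1, TDH2 and TDH3 are close copies, as are ENO1 and ENO2, so reads shared between them make their separate levels uncertain.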
